A study of Mus musculus with 6 samples.

Results

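The cyclin-dependent kinase inhibitor genes are 7 in number, Cdkn1a, Cdkn1b, Cdkn1c, Cdkn2a, Cdkn2b, Cdkn2c and Cdkn2d, and were taken by gene name from a table of 43346 genes. All 7 were found, 5 passed the filter on low counts, and Cdkn2a and Cdkn2b lay under it. The table came from RNA-seq of 6 femur pieces of C57BL/6 mice, an inbred laboratory strain, aged 4 months. The radiated group (3 libraries) is the right femur, whose distal metaphysis was given a single image-guided dose of 24 Gy over a length of 5 mm (dose rate 6.6 Gy per minute). The non-radiated group (3 libraries) was the left femur, which had no radiation of its own but grew in animals whose right leg had been treated. Femurs were collected on day 21, while the labels place bone loss at day 28, so the samples address expression ahead of it. The labels do not say which libraries share a mouse or that the replicates are separate mice, so p-values measure the spread between these samples.

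Progress through the cell cycle is driven by cyclin-dependent kinases, which act only when bound to a cyclin. The inhibitors that hold these kinases back fall into 2 families. Proteins of the Cip/Kip family, p21 (Cdkn1a), p27 (Cdkn1b) and p57 (Cdkn1c), bind whole cyclin and kinase complexes, whereas those of the INK4 family bind the kinases Cdk4 and Cdk6 and keep D-type cyclins off. Either way the retinoblastoma protein stays active and E2F factors do not switch on the genes of DNA replication. Cdkn1a is a textbook target of p53, the transcription factor that responds to DNA damage, and p16, a product of Cdkn2a, is a common marker of senescent cells, which have left the cell cycle for good.

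The start regions of Cdkn1a and Cdkn2a are shown as examples. Each gene has more than 1 start and the deposited counts pool them, as they do for other inhibitor genes such as Cdkn2c. Sequences are from RefSeq (GRCm38.p6), run 5′ to 3′ along the gene's own strand and end before the first transcribed base. Capitals mark a match to the p53 response element.
Cdkn1a, upstream start (chr17:29090729-29090975, plus strand): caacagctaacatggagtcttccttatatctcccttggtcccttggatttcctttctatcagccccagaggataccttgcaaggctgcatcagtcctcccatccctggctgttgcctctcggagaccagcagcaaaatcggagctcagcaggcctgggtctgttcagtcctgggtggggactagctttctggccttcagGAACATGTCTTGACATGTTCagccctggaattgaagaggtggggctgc
Cdkn1a, downstream start (chr17:29093519-29093768, plus strand): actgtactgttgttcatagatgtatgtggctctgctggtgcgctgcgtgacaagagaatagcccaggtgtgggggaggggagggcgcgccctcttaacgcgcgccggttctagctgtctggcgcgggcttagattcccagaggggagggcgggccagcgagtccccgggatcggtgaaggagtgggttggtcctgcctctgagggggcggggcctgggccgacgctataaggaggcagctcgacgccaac
Cdkn2a, start of the p19Arf transcript (chr4:89294654-89294869, minus strand): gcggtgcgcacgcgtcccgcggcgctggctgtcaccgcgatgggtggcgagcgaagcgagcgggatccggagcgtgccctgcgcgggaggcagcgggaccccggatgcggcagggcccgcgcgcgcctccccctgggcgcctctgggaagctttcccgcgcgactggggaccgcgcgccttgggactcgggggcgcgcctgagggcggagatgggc
Cdkn2a, start of the p16Ink4a transcript (chr4:89282193-89282442, minus strand): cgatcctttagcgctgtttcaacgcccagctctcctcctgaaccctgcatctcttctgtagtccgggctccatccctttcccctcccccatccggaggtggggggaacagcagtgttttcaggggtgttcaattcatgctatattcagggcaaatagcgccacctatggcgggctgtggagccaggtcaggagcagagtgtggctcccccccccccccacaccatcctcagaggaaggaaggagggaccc

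The capitals in the upstream Cdkn1a window span 29090928 to 29090947 on chromosome 17, and begin 51 bases before that start. They match the 20-base p53 consensus, a pair of adjoining half-sites, with 1 base off the consensus and both CATG cores intact. The consensus is its own reverse complement, so 1 strand covers both. With up to 1 mismatch outside the cores, such an element lay in 18 of 32851 windows of 300 bases around annotated starts (0.0548%). It was in 1 of the 9 windows of the inhibitor genes (6 of the 7 genes have one) and in none of the 15 p53 pathway genes with a window. A match describes letters only, and no match says only that they are not in that window. The 2 Cdkn1a starts lie 2790 bases apart and differ in base composition, with 2 CpG pairs (54.3% G and C) before the upstream start and 19 (64.8%) before the downstream one.

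Total gene counts ran from 34034251 to 48708383 per library, and 18757 genes were tested with edgeR's quasi-likelihood test. By that test 7.80% of genes had a Benjamini-Hochberg adjusted p under 0.05, here termed called, with 4.56% (856 genes) higher and 3.24% (607 genes) lower in radiated femur. Scaled by library totals alone, 854 of 1000 called genes were higher. Libraries of one group lay wholly above those of the other for 25.9% of tested genes. CPM is a gene's count relative to the library's total, rescaled by the trimmed mean of M-values (TMM), so values are relative to the bulk of genes. The TMM factor was 0.722 for non-radiated library 2 and 1.03 to 1.10 for the other libraries. In a mixed tissue such as this, fewer cells of a type and less RNA per cell cannot be told apart. Markers of bone were present, with 10 osteoblast genes summing to 8215 to 12481 CPM in non-radiated and 6051 to 7851 CPM in radiated libraries, and 5 osteocyte genes to 97.7 to 138 and 82.2 to 115 CPM. Although muscle was stripped off per the labels' protocols, 15 skeletal muscle genes summed to 434 to 816 CPM in the non-radiated libraries and to 1856, 5748 and 575 CPM in radiated libraries 1, 2 and 3. Several other summed marker levels moved with the groups without overlap, among them B cell genes (512 to 574 against 821 to 1031 CPM), adipocyte genes (103 to 117 against 201 to 269 CPM), megakaryocyte genes (1768 to 1797 against 667 to 760 CPM) and neutrophil genes (14459 to 18656 against 11525 to 13489 CPM). The part of these shifts in the results that follow was not tested, except where a value is given.

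Cdkn1a rose about 4-fold in radiated femur and was the only one of the 5 tested inhibitor genes to be called, beside 7.80% of all genes tested. Its transcript encodes p21, which binds cyclin and kinase complexes as well as the replication clamp PCNA. Cdkn1a (ENSMUSG00000023067, chromosome 17, 29090979 to 29100722, build mm10) read 8.80, 7.43 and 7.93 CPM in non-radiated libraries 1, 2 and 3. In radiated libraries 1, 2 and 3 it read 33.1, 30.0 and 31.2 CPM. All radiated libraries lay far above all non-radiated ones, and the spread within each group was small beside the gap. The fold change was 3.89, with a 95% interval of 3.39 to 4.46 (log2 fold change 1.96, SE 0.09, edgeR adjusted p 5.94e-06). By p-value Cdkn1a stood 8th of the 18757 genes, and by size of rise 165th. Libraries with the same number differed 3.76-fold, 4.03-fold and 3.93-fold for numbers 1, 2 and 3, although the labels do not state a pairing. Radiated library 3, whose muscle level of 575 CPM lay within the non-radiated range, read 31.2 CPM, between radiated libraries 2 and 1. As a single library, it is no test of the part of muscle in the rise.

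**Figure D1:**
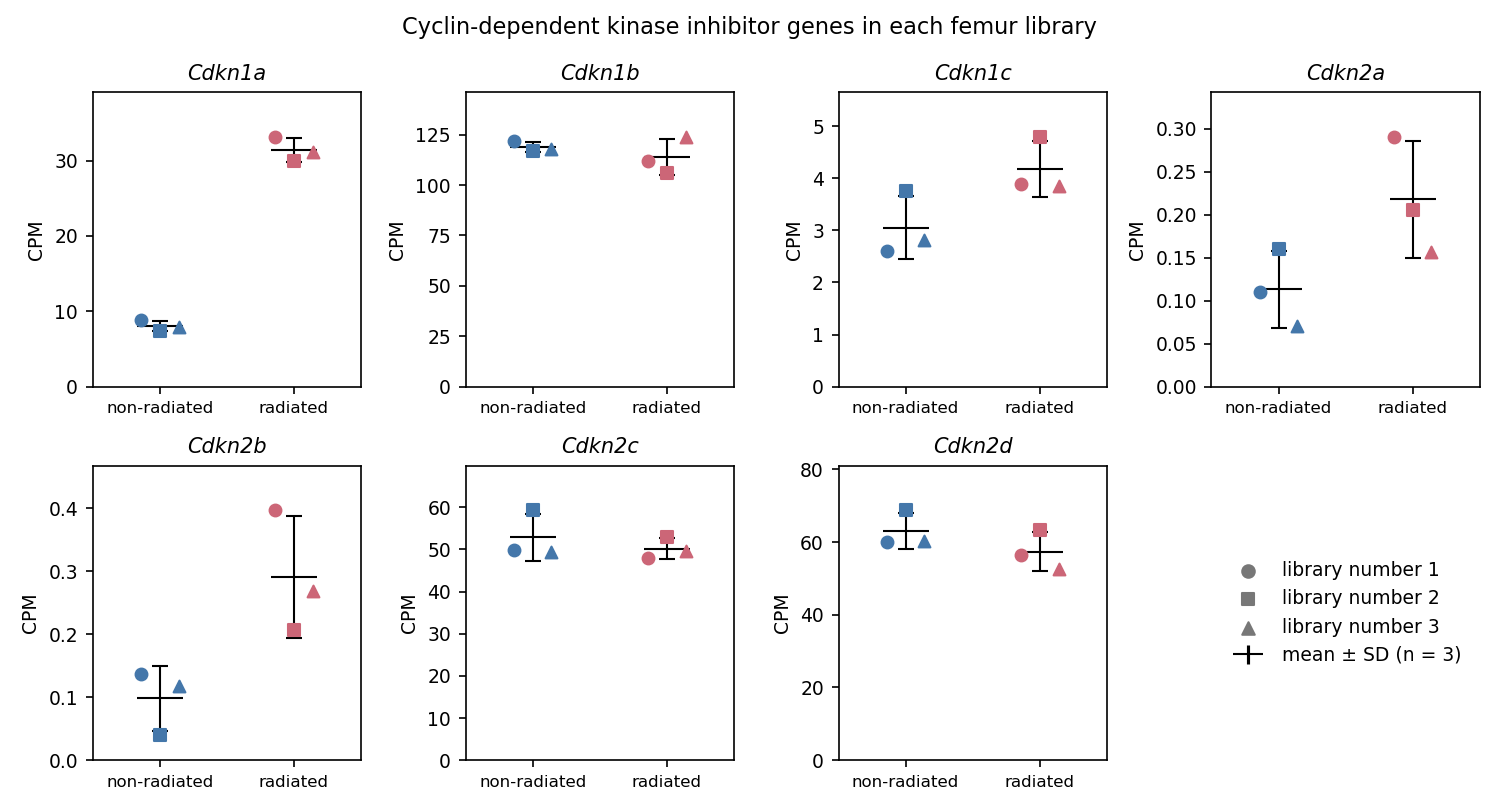
Each panel plots the CPM of 1 inhibitor gene (vertical axis from 0) in the 3 non-radiated and 3 radiated libraries, with marker shapes for the library number and black bars for the mean ± SD. Cdkn1a separates at 7.43 to 8.80 against 30.0 to 33.1 CPM, while Cdkn1b, Cdkn2c and Cdkn2d overlap between groups.

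The other Cip/Kip genes behaved differently from Cdkn1a and from each other. Cdkn1b (ENSMUSG00000003031, chromosome 6, 134920401 to 134925513) encodes p27, which holds resting cells out of the cycle. It read 122, 117 and 118 CPM in the non-radiated and 112, 106 and 124 CPM in the radiated libraries. The highest and the lowest value both came from radiated femur, and the groups overlapped. The fold change was 0.958, with a 95% interval of 0.867 to 1.06 (edgeR adjusted p 0.646), so a rise of the size seen in Cdkn1a lies outside the interval.

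Cdkn1c (ENSMUSG00000037664, chromosome 7, 143458350 to 143461050) encodes p57, is expressed from the maternal copy only, and is known for keeping blood stem cells at rest. It read 2.61, 3.75 and 2.81 CPM in the non-radiated and 3.88, 4.79 and 3.85 CPM in the radiated libraries. The groups were separate, but by a narrow margin, since non-radiated library 2 lay just under radiated library 3. The fold change was 1.38, with a 95% interval of 1.05 to 1.81 before adjustment, and the difference was not called (log2 fold change 0.46, SE 0.17, unadjusted p 0.0262, edgeR adjusted p 0.160). Thus 2 of the 5 tested genes, Cdkn1a and Cdkn1c, had groups that did not overlap, beside 25.9% of all genes. Within each group the library highest in Cdkn1c was also the highest in muscle markers, at 816 CPM among the non-radiated and 5748 CPM among the radiated. With the muscle level as a covariate the log2 fold change of Cdkn1c was 0.26 (adjusted p 0.604), against 2.0 (adjusted p 2e-05) for Cdkn1a. The summed level of 7 stem and progenitor markers was lower in the radiated libraries, at 103 to 111 against 145 to 156 CPM.

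Of the INK4 genes, the 2 that are abundant in this tissue overlapped between the groups and were not called. Cdkn2c (ENSMUSG00000028551, chromosome 4, 109660876 to 109667189), which encodes p18, read 49.9, 59.2 and 49.3 CPM in the non-radiated and 48.1, 52.9 and 49.7 CPM in the radiated libraries. Library 2 was the highest in both groups, and the groups overlapped. Its fold change was 0.952 (95% interval 0.839 to 1.08, edgeR adjusted p 0.681). Cdkn2d (ENSMUSG00000096472, chromosome 9, 21288463 to 21291209), which encodes the INK4 protein p19, read 60.1, 68.7 and 60.4 CPM in the non-radiated and 56.4, 63.2 and 52.5 CPM in the radiated libraries. It was lower in the radiated library of each of the 3 numbers, but radiated library 2 stood above non-radiated libraries 1 and 3. The fold change was 0.911 (95% interval 0.801 to 1.04, edgeR adjusted p 0.400). With the muscle level as a covariate its log2 fold change went from -0.13 to -0.29 (SE 0.08, unadjusted p 0.00481, adjusted p 0.0737), still not called.

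Cdkn2a and Cdkn2b lie next to each other on chromosome 4, with 11635 bases between them, and both were near the limit of detection. Cdkn2a (ENSMUSG00000044303, 89274471 to 89294653) gives rise to p16Ink4a and, from its upstream start, to p19Arf, a protein that stabilises p53. Both transcripts share exons and the counts do not part them. The gene had 4, 4 and 3 counts in the non-radiated and 11, 11 and 7 counts in the radiated libraries, or 0.110, 0.160 and 0.0708 against 0.291, 0.206 and 0.157 CPM. Radiated library 3 lay just under non-radiated library 2, so the groups overlapped. In the fit with no filter on low counts the fold change was 1.97 with a 95% interval of 0.815 to 4.76 (edgeR adjusted p 0.490). The difference was not called, and the interval takes in both no change and the change measured for Cdkn1a.

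Cdkn2b (ENSMUSG00000073802, 89306289 to 89311032) encodes p15, which is known as a target of TGF-beta signalling. It had 5, 1 and 5 counts in the non-radiated and 15, 11 and 12 counts in the radiated libraries, or 0.137, 0.0399 and 0.118 against 0.396, 0.206 and 0.269 CPM. All radiated libraries were above all non-radiated ones, though each value rests on at most 15 counts. The fold change without the filter was 2.69 (95% interval 1.17 to 6.22 before adjustment, unadjusted p 0.0225, edgeR adjusted p 0.185), which was not called. The plot of fold changes places the narrow interval of Cdkn1a beside the wide ones of these 2 genes.

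**Figure D2:**
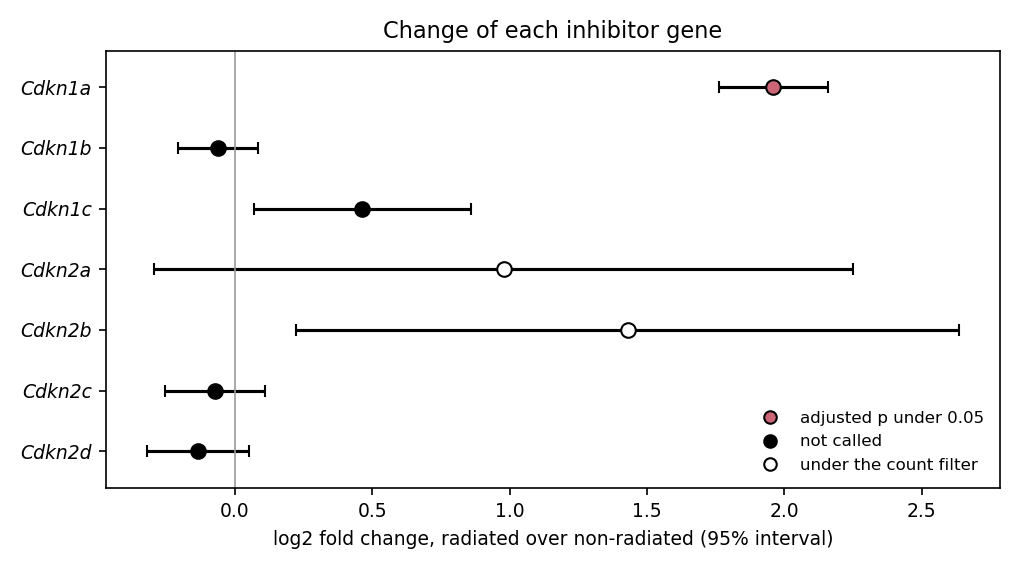
Points give the log2 fold change of radiated over non-radiated femur for each inhibitor gene, with its 95% interval before adjustment on the horizontal axis, and open points mark genes under the count filter. Cdkn1a lies at 1.96 (1.76 to 2.16), and the intervals of Cdkn1b, Cdkn2c and Cdkn2d span 0 and end at or below 0.11.

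Per kilobase of gene length, which allows levels to be compared between genes, Cdkn2d was the most abundant inhibitor transcript in both groups. Its level was 49.6 ± 3.85 CPM per kb in the non-radiated libraries and 45.1 ± 4.29 in the radiated ones (mean ± SD, n = 3 each). Cdkn1b followed at 26.1 ± 0.573 and 25.02 ± 2.0 CPM per kb, and Cdkn2c at 19.7 ± 2.07 and 18.7 ± 0.912. Cdkn1a came next in both groups, at 3.62 ± 0.314 CPM per kb without and 14.1 ± 0.717 with radiation. The gap to Cdkn2c above it narrowed, from 18.4 against 3.96 CPM per kb between their nearest non-radiated libraries to 17.9 against 14.9 between their nearest radiated ones. Cdkn1c was at 1.58 ± 0.317 and 2.16 ± 0.277, and Cdkn2a and Cdkn2b were both under 0.3 CPM per kb in every library. The ranges of neighbours in this order were separate in both groups, except that those of Cdkn2a and Cdkn2b overlapped.

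Summed over the 7 genes, the level per length was 100.8 ± 5.61 CPM per kb in the non-radiated and 106 ± 3.05 in the radiated libraries. Non-radiated library 2, at 107, lay above radiated libraries 1 and 3, so the sums overlapped. Within each number the radiated library was the higher one, at 104 against 98.1, 109 against 107 and 103 against 97.0 CPM per kb. Cdkn1a made up 3.61% ± 0.464 of the sum in the non-radiated and 13.4% ± 0.976 in the radiated libraries. Over the same groups the mean share of Cdkn2d went from 49.2% to 42.7% and that of Cdkn1b from 26.0% to 23.7%. These shares are a description, and they weight each gene by the length given in the deposited table.

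**Figure D3:**
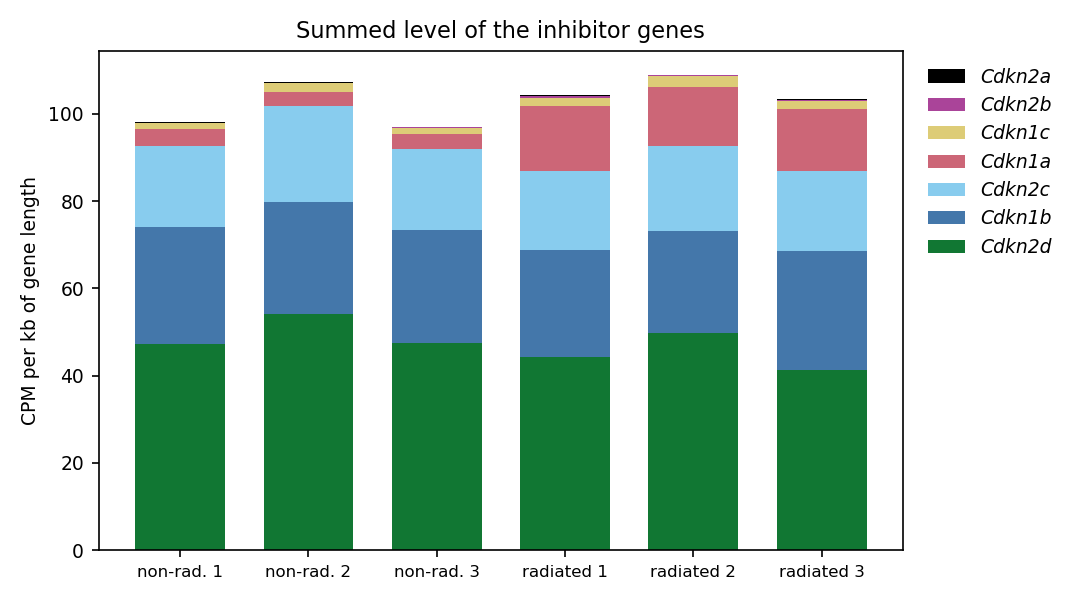
Stacked bars give the level of each inhibitor gene in CPM per kb of gene length for the 6 libraries, from 0. The bars are similar in height (97.0 to 109 CPM per kb), and the Cdkn1a segment goes from 3.34 to 3.96 in the non-radiated to 13.5 to 14.9 in the radiated libraries.

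The genes whose profile over the 6 libraries was most like that of Cdkn1a were Apol6, Fam212b, Igf2, Trp53cor1 and Matn4. Likeness was the root mean square difference of log2 CPM after each gene was centred on its own mean, taken over the 15579 tested genes whose mean CPM was 1 or more. Apol6 came closest, at 0.0957, with 2.55, 2.20 and 2.501 CPM in the non-radiated and 8.93, 8.60 and 8.02 CPM in the radiated libraries. Igf2, which encodes an insulin-like growth factor, was the third, at 0.156, with 7.49, 7.27 and 6.47 against 22.5, 25.4 and 25.3 CPM. Both genes were higher in every radiated library, with log2 fold changes of 1.81 and 1.79. Fam212b (0.117) and Matn4 (0.186), which encodes a matrilin of the extracellular matrix, had log2 fold changes of 1.77 and 1.82. A likeness over 6 libraries in 2 groups is mostly a like size of difference between the groups and a small spread. Fold changes near that of Cdkn1a and separate groups thus follow from how these genes were picked. Trp53cor1 and Matn4 reached a mean of 1 CPM only through the radiated libraries (non-radiated means 0.598 and 0.477 CPM).

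Trp53cor1, at a distance of 0.183 from the Cdkn1a profile, is also its neighbour on the chromosome. It encodes a long noncoding RNA known as lincRNA-p21, and lies on the opposite strand at 29057474 to 29078961. Its start faces that of Cdkn1a, with 12017 bases between the genes. Its level was 0.741, 0.439 and 0.614 CPM in the non-radiated and 2.54, 2.60 and 2.11 CPM in the radiated libraries. No library of one group reached the other, and edgeR put the difference at 1.98 on the log2 scale (SE 0.22, adjusted p 0.000885), beside 1.96 for Cdkn1a. Since Trp53cor1 was picked for its likeness to Cdkn1a in these libraries, that agreement is no independent result. Of the 10 other genes within 100 kb of Cdkn1a, 6 were tested and 3 called, beside 7.80% of all genes tested. Trp53cor1 was higher, and Rab44 and Gm16194 were lower (log2 fold changes -0.30 and -0.33, edgeR adjusted p 0.0359 and 0.0467). Those calls were kept in 7 of 14 alternatives for Rab44 and in 6 for Gm16194, and both were lost on leaving out any single library except non-radiated library 1 (adjusted p 0.0696 to 0.108 and 0.0755 to 0.147). Srsf3, between Trp53cor1 and Stk38, and Stk38 itself had log2 fold changes of -0.04 and -0.02 and were not called (edgeR adjusted p 0.832 and 0.849). Cpne5, the remaining tested neighbour, averaged 0.688 CPM without and 1.19 CPM with radiation (log2 fold change 0.79, SE 0.23) and was not called (edgeR adjusted p 0.0680). These 5 neighbours other than Trp53cor1 were picked with their values in view.

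**Figure D4:**
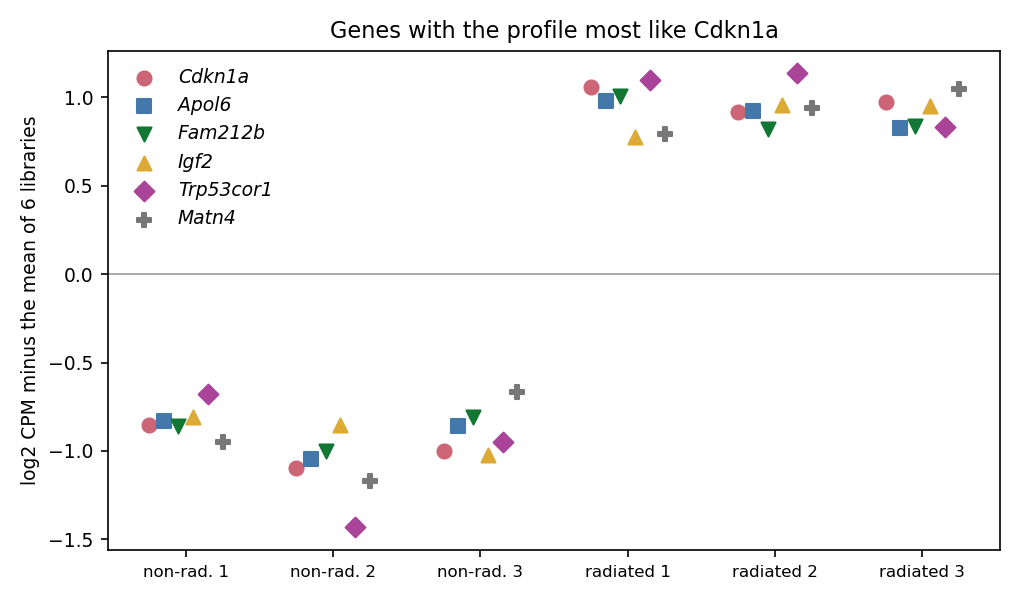
Points give log2 CPM of Cdkn1a and the 5 genes with the most similar profile, each minus its own mean (vertical axis), for the 6 libraries set out along the horizontal axis. All 6 genes lie below 0 in the non-radiated and above 0 in the radiated libraries, and their log2 fold changes are 1.77 to 1.98. The genes beside Cdkn1a were picked for this likeness.

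Around the inhibitors, 125 other genes of the pathway were looked up, of which 123 were tested, 18 called higher and 3 lower. Of all genes tested, 4.56% were called higher and 3.24% lower. The lists were chosen with earlier results of these data known, so their counts are a description and no independent result. The 8 G1 cyclins and kinases, the direct partners of the inhibitors, had a median log2 fold change of -0.01, beside 0.00 over all genes tested, with 2 called higher and none lower. Ccnd1, which encodes cyclin D1, read 30.3, 26.4 and 31.0 CPM in the non-radiated and 56.3, 47.2 and 54.9 CPM in the radiated libraries (log2 fold change 0.85, SE 0.09, edgeR adjusted p 0.000654). Ccnd2, for cyclin D2, rose by less, from 125 ± 4.45 to 150 ± 5.33 CPM (mean ± SD, n = 3 each, log2 fold change 0.27, edgeR adjusted p 0.0161), a call lost without non-radiated library 2 (adjusted p 0.0932), without radiated library 1 (0.0745) and with scaling by library totals alone (0.270). Ccnd1 and Ccnd2 were both higher in all radiated libraries than in any non-radiated one. Groups did not overlap, in either direction, for 25.9% of all genes tested. The kinase genes that INK4 proteins bind had log2 fold changes of -0.01 for Cdk4 and -0.16 for Cdk6 (edgeR adjusted p 0.914 and 0.139), and Cdk2, a partner of p21 and p27, had -0.01 (0.914). Ccnd3 and Ccne1 were at -0.01 and -0.04 (0.961 and 0.878). Ccne2, for cyclin E2, had a log2 fold change of -0.30 with no overlap between groups (70.0, 68.5 and 59.3 against 48.1, 52.99 and 59.0 CPM), and was not called (edgeR adjusted p 0.0736). It was called lower in 4 of 14 alternatives, with no filter on low counts (adjusted p 0.0207), by DESeq2's Wald test (0.0122), and on leaving out library 3 of the non-radiated (0.0452) or of the radiated group (0.0347).

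Downstream of the kinases no gene was called. In the 8 S and M phase cyclins, Cdk1 and Cdc25 genes the median log2 fold change was -0.08, with Ccna2 at -0.09 and Ccnb1 at -0.07 (edgeR adjusted p 0.523 and 0.576). The 13 pocket protein, E2F and DP genes had a median of -0.06, among them Rb1, for the retinoblastoma protein, at -0.17 (0.217). All 16 E2F-driven replication genes had log2 fold changes below 0, between -0.20 and -0.03, with a median of -0.09. The sign of such small values is relative to the scaling. With library totals alone the median of all genes was 0.19 and Mki67 was at 0.077, its 1 reversal in 14 alternatives. The other genes of this list are not given under that scaling. At an unadjusted p under 0.05 there were 0, 1 and 2 genes in these 3 lists, beside 4040 of the 18757 genes tested. Mki67, the proliferation marker, averaged 2785 ± 320 CPM without radiation and 2536 ± 152 CPM with it (SD, n = 3 each), and the groups overlapped (edgeR adjusted p 0.515). The 11 genes for the turnover of p21, p27 and p57 protein had a median of -0.10 and none was called. At an unadjusted p under 0.05 there were 2 of the 11, again beside 4040 of 18757.

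The p53 pathway list, of which Cdkn1a is itself a known target, had 17 of 20 log2 fold changes above 0 (median 0.26), of which 8 were called, and no gene was called lower. Beside these counts, 4.56% of all genes tested were called higher and 3.24% lower, and 9477 of 18757 had a log2 fold change above 0. Eda2r, a receptor gene, went from 0.576, 0.838 and 0.708 CPM to 8.19, 7.75 and 7.24 CPM, a larger difference than that of Cdkn1a (log2 fold change 3.46). Phlda3, an inhibitor of Akt signalling, read 2.25, 2.52 and 2.52 against 12.0, 13.4 and 10.8 CPM (log2 fold change 2.31). Zmat3 and Ccng1, for an RNA-binding protein and cyclin G1, rose by log2 fold changes of 1.09 and 0.51. Trp53 itself was at 58.7 ± 0.803 and 61.2 ± 1.49 CPM, and Mdm2, for the ligase that degrades p53, at 83.9 ± 0.774 and 93.6 ± 7.22 CPM (mean ± SD, n = 3 each). Neither was called (edgeR adjusted p 0.560 and 0.176). Within this list the called rises thus ranged widely, and that of Cdkn1a lay between those of Zmat3 and Phlda3. This list was picked with the response of these libraries known and is not independent evidence of its direction.

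Among 14 regulators of the Cdkn2a and Cdkn2b genes the median log2 fold change was -0.03, with 2 genes called higher and 1 lower. Of all genes tested, 4.56% were called higher and 3.24% lower. Ets1, an activator of p16 expression, was at 0.28 and Cbx7, a Polycomb protein that represses the locus, at 0.31 (edgeR adjusted p 0.0182 and 0.0420). Tbx2, for another repressor, fell by 0.64 on the log2 scale (edgeR adjusted p 0.0383). Each of these calls was lost with scaling by library totals alone (adjusted p 0.246 for Ets1, 0.223 for Cbx7 and 0.537 for Tbx2) and without certain single libraries, and that of Tbx2 also with the muscle covariate (0.0523). Without non-radiated library 2 the adjusted p was 0.101 for Ets1 and for Tbx2 and 0.177 for Cbx7, and without non-radiated library 1 it was 0.0561 for Ets1, 0.0817 for Tbx2 and 0.137 for Cbx7. The calls of Ets1 and Cbx7 were also lost without radiated library 1 (0.0759 and 0.128), those of Cbx7 and Tbx2 without radiated library 3 (0.101 and 0.0729), and that of Tbx2 without non-radiated library 3 (0.0802) or radiated library 2 (0.0755). The other Polycomb genes Bmi1 and Ezh2 were not called.

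Of 8 regulators of Cdkn1b and of the resting state, Foxo1 alone was called, beside 7.80% of all genes tested. It read 54.8, 48.1 and 50.7 CPM in the non-radiated and 73.7, 67.1 and 79.97 CPM in the radiated libraries (log2 fold change 0.52, SE 0.08, edgeR adjusted p 0.00383). Foxo1 is a transcription factor known to activate Cdkn1b, whose own level overlapped between groups, and Foxo1 is also abundant in B cells, whose 9 markers were all called higher. The part of B cells in the rise of Foxo1 was not tested. The imprinted neighbours of Cdkn1c, 7 of 8 tested, had a median of 0.05 and no call, with 1 of the 7 at an unadjusted p under 0.05, beside 4040 of 18757 genes. Kcnq1ot1, the noncoding RNA of that imprinted domain, read 423, 403 and 417 CPM in the non-radiated and 415, 412 and 460 CPM in the radiated libraries (edgeR adjusted p 0.723). Those values overlapped between groups.

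Of 20 genes for factors that senescent cells are known to secrete, 19 were tested, 6 called higher and 2 lower, with a median log2 fold change of 0.35. Over all genes tested, the shares called were 4.56% higher and 3.24% lower. The 2 genes called lower were Il1a and Igfbp3 (log2 fold change -0.63 for both, edgeR adjusted p 0.0189 and 0.0286). Mmp12, a macrophage elastase gene, went from 1.59, 1.52 and 1.06 CPM to 8.93, 8.69 and 6.43 CPM (log2 fold change 2.54, edgeR adjusted p 9.61e-05). Ccl8, a chemokine gene, rose by 1.49 on the log2 scale (edgeR adjusted p 0.00211), and Csf1, for a growth factor of macrophages and osteoclasts, by 0.55 (0.00378). No value of these 3 genes, named for their small p-values, overlapped between the groups, beside 25.9% of all genes tested without overlap. The summed level of 7 macrophage markers was also higher in the radiated libraries, at 967 to 1098 against 797 to 911 CPM, with 4 of them called higher and 1, Cd163, called lower (log2 fold change -0.91). Its part in these rises was not tested.

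**Figure D5:**
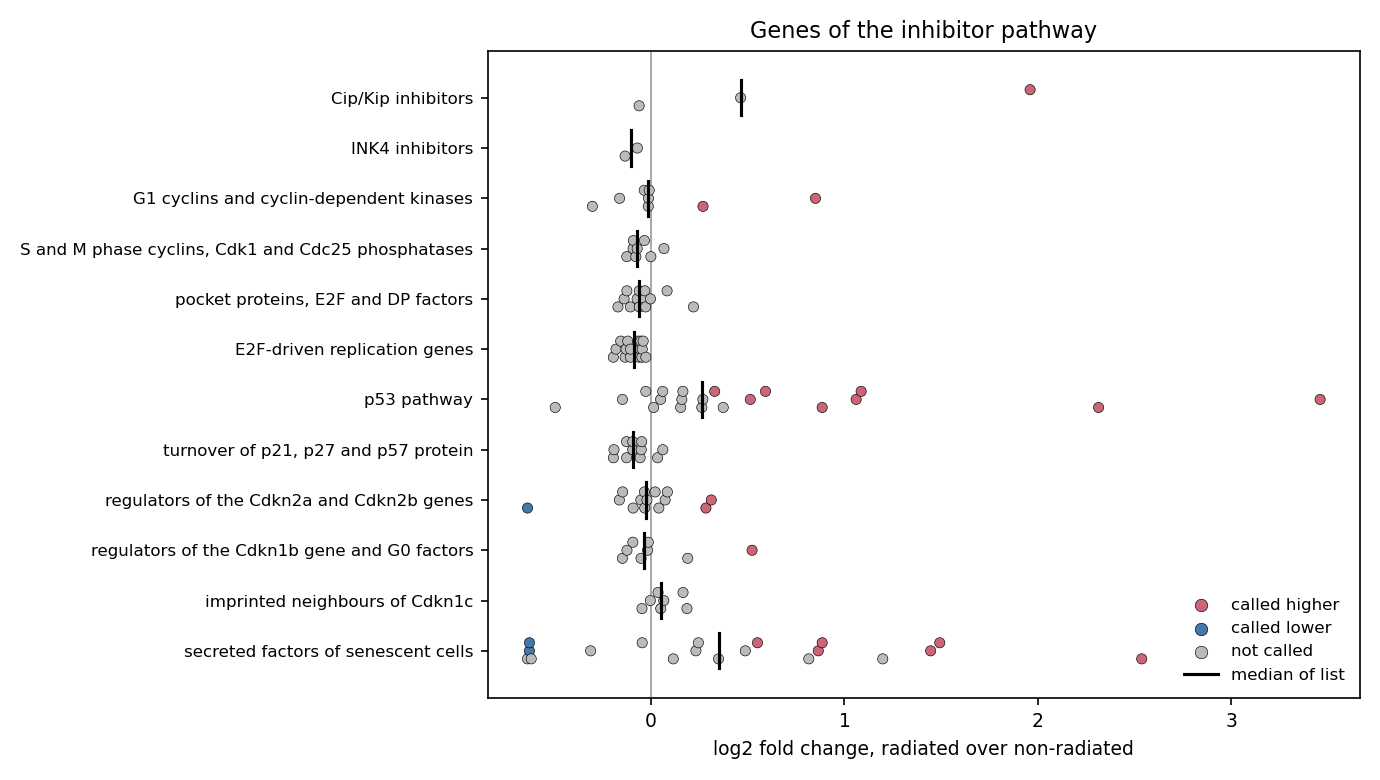
Each point is 1 tested gene at its log2 fold change (horizontal axis) in the list named on the vertical axis, coloured by call, and black lines are list medians. The 3 lists of cell cycle genes downstream of the kinases sit near 0 (medians -0.08, -0.06 and -0.09), while the p53 pathway list has a median of 0.26 and reaches 3.46.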

How the data were processed

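Per the submitters' processing notes, bcl2fastq, STAR 2.5.2b, Subread and featureCounts were used with build mm10. The annotation release and the use of strand in counting are not given in the sources used here. Per the file headers, the deposited table holds raw read counts and RPKM per gene. The deposited RPKM entered only 1 alternative. No inhibitor gene overlaps another gene in the table.

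The deposited counts went into edgeR 4.0.16 (R 4.3.3) after filterByExpr (minimum count 10, minimum total 15) and TMM scaling, with glmQLFit and glmQLFTest, group as the only term, and Benjamini-Hochberg adjustment over 18757 genes. The SE is the log2 fold change over the square root of F. Cdkn2a and Cdkn2b were read from the fit with no filter. No replicates of a group were near-identical, as a library deposited more than once would be (chi-square per degree of freedom at least 16.6). Non-radiated library 2 stood far from non-radiated libraries 1 and 3 (580 and 492), against 42.3 between those.

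Same-numbered libraries deviated together across genes (r = 0.159, 0.254 and 0.180 for numbers 1, 2 and 3, and below 0 for other pairs), a hint of pairing that the labels do not state. The reported fits have no block, and the block is an alternative. Alternatives were the replicate block, DESeq2 1.42.0 (size factors, Wald test), limma-voom (limma 3.58.1), library totals, 2 other filters, a muscle covariate, other lengths and leaving out each library.

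The members, lists and alternatives were chosen with earlier results of these data known. Named were the 7 inhibitors, up to 4 called genes per pathway list (1 such gene is not reported here), 15 fixed genes and the 5 genes most like Cdkn1a. Srsf3, Stk38, Rab44, Gm16194, Cpne5, Cd163, Bmi1, Ezh2, Il1a and Igfbp3 were chosen after their values were seen. Marker lists serve as values beside the results.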

Additional observations from a re-analysis of the deposited data

How the results depend on the processing

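Cdkn1a was called in each of the 14 alternatives, with log2 fold changes from 1.90 to 2.14 and adjusted p of at most 0.000142. Cdkn1b, Cdkn1c, Cdkn2c and Cdkn2d were called in none of 14, Cdkn2b in none of the 4 alternatives whose filter it passed, and Cdkn2a passed no other filter. The replicate block changed no call of an inhibitor gene (Cdkn1a 1.96, adjusted p 2.13e-05, and Cdkn1c 0.46, adjusted p 0.0861), and 1670 genes were called with it, against 1463. The count of called genes was 970 with the muscle covariate and between 764 and 1376 without 1 library, the lowest on leaving out radiated library 1, and on leaving out non-radiated libraries 2 and 1 it was 819 and 905. Library totals alone moved the median of all genes to 0.19, and under that scaling genes near 0 turned positive: Cdkn1b 0.13, Cdkn2c 0.14, Cdkn2d 0.072, Rb1 0.029, Cdk2 0.18, Cdk4 0.18, Cdk6 0.036, Ccnd3 0.19, Ccne1 0.17, Ccna2 0.11, Ccnb1 0.12 and Mki67 0.077, each at or under that shift. The muscle covariate gave 0.044 for Cdkn1b and 0.0046 for Cdk2. Without 1 library, Cdkn2c ranged from -0.12 to 0.0033, Cdk2 from -0.044 to 0.0057, Cdk4 from -0.049 to 0.014, Ccnd3 from -0.073 to 0.032, Ccne1 from -0.15 to 0.031 and Kcnq1ot1 from -0.0044 to 0.077. With the longest transcript as the length the share of Cdkn1a in radiated libraries was 14.6%. The share of Cdkn2d was then 45.4% in non-radiated and 38.9% in radiated libraries, against 49.2% and 42.7% with the deposited length. That of Cdkn2c was 21.9% and 19.6%, against 19.5% and 17.7%. Depth limits Cdkn2a and Cdkn2b, with 11 and 11 counts over the non-radiated and 29 and 38 over the radiated libraries.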
